A study of Mus musculus with 21 samples.

Results

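A set of 9 hematopoietic genes, of the 23420 genes in the count table, were followed through inflammatory monocytes (IMs) of bone marrow and of lung squamous carcinoma. They were chosen by name as regulators and surface proteins of blood progenitors and granulocyte precursors: Cd34, Kit, Myb, Sox4, Gata2, Meis1, Hoxa9, Cebpe and Gfi1. All 9 were present in the table. The series held 21 RNA-seq libraries of IMs that had been sorted as live SiglecF- CD45+ CD11b+ Ly6G- Ly6C-high cells after a magnetic monocyte enrichment. BM IMs came from marrow of naïve FVB mice (n = 3) and naïve DBA2 mice (n = 3). Tumor inflammatory monocytes (TIMs) came from primary tumors (n = 5) and lymph node metastases (n = 5) of FVB mice that had received 500000 LN2E1 cells into the lung, and from lung metastases (n = 5) of DBA2 mice that had received 300000 LN4K1 cells by vein. LN2E1 is a metastatic line derived from the KAL lung squamous carcinoma line, and LN4K1 was derived from the line KLN-205. The labels name no engineered allele in these mice, and by the study's methods tumor cells were injected into adults of both sexes. Between the models strain, cell line, route and tumor site changed together, so that they cannot be told apart. The study's text treats the libraries of a group as technical replicates, and the labels do not say that they came from separate mice, so p-values measure only the spread between these libraries.

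Ly6C-high monocytes form in the marrow from myeloid progenitors and enter blood and inflamed tissue. CD34 and the stem cell factor receptor KIT mark early progenitors, which lose both as they differentiate. The transcription factors MYB, GATA2, MEIS1, HOXA9 and SOX4 act in stem and progenitor cells, whereas C/EBPε and GFI1 belong to the granulocyte branch, where C/EBPε is needed for secondary granule genes and GFI1 represses monocyte genes. Several members are also used outside these stages: GATA2 and KIT in mast cells and basophils, C/EBPε in eosinophils and neutrophils, and CD34 and SOX4 in endothelium or stroma.

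The proximal promoters of Cd34 and Myb are shown because Myb was the member that fell in all 3 kinds of TIM and Cd34 the member whose change differed between the models. Both are RefSeq windows on GRCm38.p6 that end at the base before the annotated start of the gene, read 5′ to 3′ on the gene's strand. Capitals mark matches, on either strand, to AACNG (a MYB core) or AAATCA (a GFI1 core).
Cd34, chr1:194938571-194938818, plus strand: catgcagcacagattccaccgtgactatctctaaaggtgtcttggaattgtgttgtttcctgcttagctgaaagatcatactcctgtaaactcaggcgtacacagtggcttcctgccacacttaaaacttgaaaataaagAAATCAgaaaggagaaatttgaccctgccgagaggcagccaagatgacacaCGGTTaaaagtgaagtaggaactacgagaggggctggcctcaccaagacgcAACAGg
Myb, chr10:21160985-21161234, minus strand: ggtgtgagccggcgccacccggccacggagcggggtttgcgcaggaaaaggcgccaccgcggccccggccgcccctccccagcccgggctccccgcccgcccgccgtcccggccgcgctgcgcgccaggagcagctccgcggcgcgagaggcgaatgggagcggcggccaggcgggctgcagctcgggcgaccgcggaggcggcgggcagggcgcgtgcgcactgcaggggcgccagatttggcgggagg
The Cd34 window had a GC content of 46.4% and held 2 matches to AACNG and 1 to AAATCA, none of which overlapped. Counted from 1 at the last base before the start, the AACNG matches began at bases 57 and 6 and the AAATCA match at base 108. The Myb window had a GC content of 81.2% and held none of these letters. On both strands, neither window held a GATA core (AGATAA, found in 9.99% of all promoter windows), a C/EBP dimer site (TTGCNNAA, in 9.56%), a MEIS core (TGACAG, in 15.9%) or a SOX core (AACAAAG, in 5.03%). The median GC content of all 32851 promoter windows was 52.4%, and 74.2% of them held AACNG and 12.4% held AAATCA, so the Cd34 matches were of common kinds. Of the 9 members, 8 had an entry in the promoter table.

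On GRCm38, which is mm10, the GENCODE annotation places Cd34 on chromosome 1 (194938819 to 194961279, plus strand), Kit on chromosome 5 (75574916 to 75656722, plus), Myb on chromosome 10 (21124935 to 21160984, minus) and Sox4 on chromosome 13 (28948919 to 28953713, minus). Gata2 lies on chromosome 6 (88193891 to 88207032, plus), Meis1 on chromosome 11 (18879817 to 19018985, minus), Hoxa9 on chromosome 6 (52223100 to 52231089, minus), Cebpe on chromosome 14 (54710360 to 54712174, minus) and Gfi1 on chromosome 5 (107716657 to 107726036, minus). The libraries did not mark strand, so reads of overlapping genes cannot be assigned by strand. For Sox4, 54.6% of the exon bases are covered by the opposite-strand gene Gm26735, so its counts are uncertain in that respect, and for Meis1 18.3% are covered by Gm37818 and Gm16140. The other members were overlapped over at most 6.26% of their exon bases.

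Depth was high and even, with 80772922 to 101043568 counts a library, so 3 counts corresponded to 0.0268 to 0.0405 CPM, the count scaled to library size after TMM normalization. Markers of the sorted cells were high in every library, with 974 to 3600 CPM of Ly6c2, a gene of the Ly6C antigen, and 625 to 3362 CPM of Csf1r. They were not level between the groups. Mean Ly6c2 was 3023 CPM in FVB and 2583 CPM in DBA2 BM IMs. It was 1245, 1337 and 1483 CPM in primary tumor, lymph node and lung TIMs. Csf1r went the other way, from 791 CPM in FVB and 1078 CPM in DBA2 BM IMs to 2679, 2859 and 1747 CPM. Lymph node replicate 1 stood apart from the rest, with 11047 genes at 10 or more counts against 12015 to 14512 in the other libraries. Lung replicate 3 was the next lowest, at 12015 genes.

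Per kilobase of exon, the level order differed between the groups. In FVB BM IMs Cd34 (3.45 CPM per kb), Cebpe (2.57) and Myb (2.29) led, and the ranges of neighbors in that order overlapped. All 3 lay above Gata2 (0.912), which was followed by Gfi1 (0.578), Sox4 (0.423), Meis1 (0.279), Kit (0.181) and Hoxa9 (0.0227), again with overlapping neighbors. In DBA2 BM IMs Cebpe came first at 11.4 CPM per kb, beyond the libraries of Myb at 2.82 and Cd34 at 2.29, which overlapped each other. Below them lay Meis1 (0.17), Sox4 (0.14), Kit (0.0884), Gata2 (0.0803) and Gfi1 (0.0613), whose neighbors overlapped, and then Hoxa9 (0.0136). In primary tumor TIMs Cd34 (2.51), Sox4 (1.88), Gata2 (1.62) and Cebpe (1) led, with overlap between neighbors, and Myb had moved down to 0.0874 CPM per kb. In lymph node TIMs every neighbor overlapped, from Cebpe at 1.3 down to Gfi1 at 0.00309 CPM per kb. In lung TIMs Cebpe (4.15) was clear of Cd34 (0.542), which was clear of Meis1 (0.208).

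**Figure D1:**
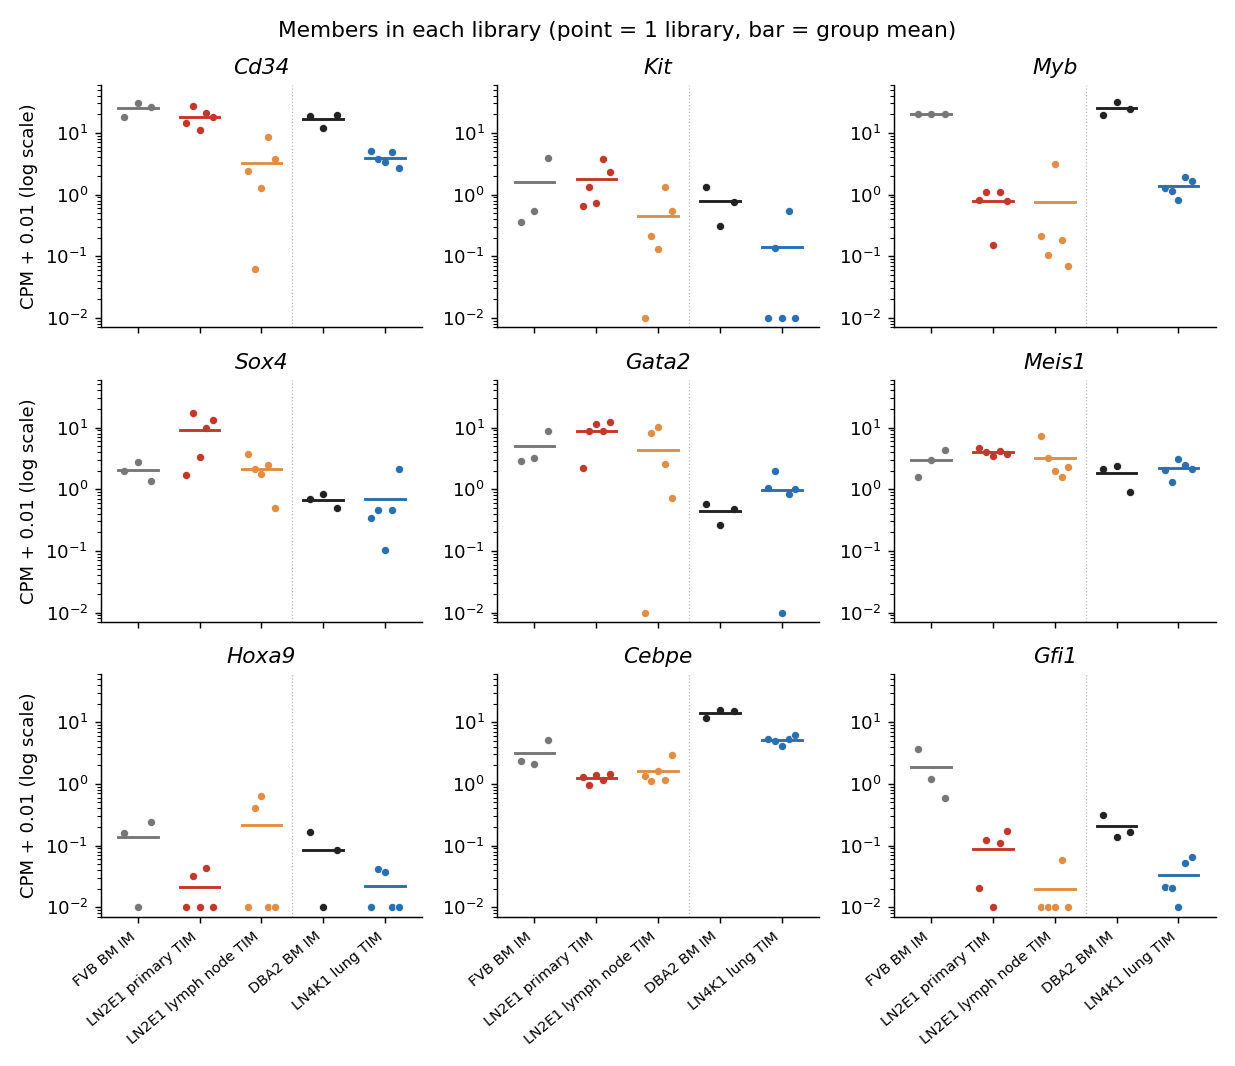
Each panel plots 1 member in the 21 libraries, with CPM + 0.01 on a log scale on the vertical axis and the 5 groups on the horizontal axis; points are libraries, bars are group means and points at 0.01 are libraries with 0 counts. Myb lay at 19.7 to 31.7 CPM in BM IMs and at 0.0594 to 3.15 CPM in TIMs, whereas Cd34 stayed at 11 to 26.9 CPM in primary tumor TIMs and was at most 8.5 CPM in lymph node and lung TIMs.

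The comparison of TIMs with BM IMs of the same strain asked which members differed between monocytes in tumors and their marrow counterparts. Myb fell sharply in all 3 kinds of TIM, Cebpe fell in primary tumor and lung TIMs, and Cd34 fell in lymph node and lung TIMs. In the LN2E1 model Gfi1 fell from a low marrow level to few or no counts. Sox4 rose in primary tumor TIMs. Kit, Gata2, Meis1 and Hoxa9 did not pass the test in any of the 3 comparisons. A member was called at an adjusted p under 0.05 (edgeR's quasi-likelihood test, Benjamini-Hochberg over all genes tested in that comparison). In primary tumor TIMs 1 of 8 tested members rose and 3 fell, against 33.3% and 28.6% of all genes tested. In lymph node TIMs 3 of 9 tested members fell and 0 rose, against 17.2% and 20.2% of all genes. In lung TIMs 3 of 8 fell and 0 rose, against 11.0% and 13.9% of all genes. The median log2 fold change of the tested members was -0.20, -0.99 and -1.84 in primary tumor, lymph node and lung TIMs, beside 0.08, -0.04 and 0.03 over all genes. Counting libraries alone, 3, 3 and 4 of the tested members lay below marrow without overlap in primary tumor, lymph node and lung TIMs, beside 27.3%, 22.8% and 14.9% of all genes. The primary tumor and lymph node comparisons shared the same 3 FVB BM IM libraries, so they are not independent of each other. Because these are bulk libraries, fewer cells of a type and less RNA per cell cannot be told apart.

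**Figure D2:**
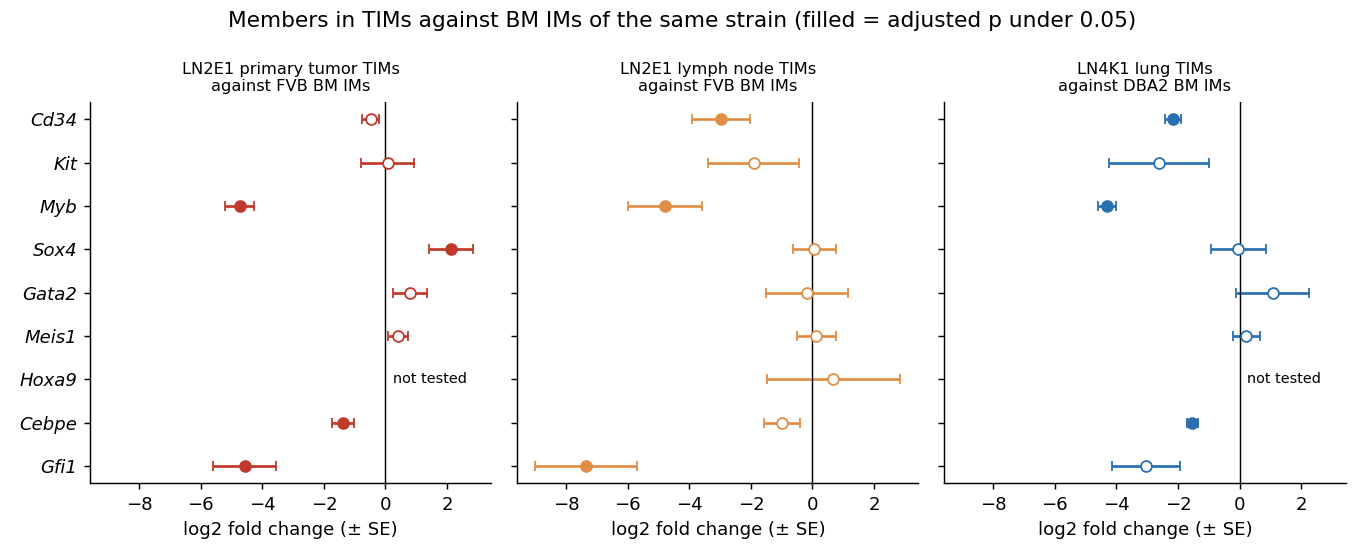
Log2 fold changes of the 9 members (horizontal axis, bars are ± 1 SE) in 3 panels, 1 for each kind of TIM against BM IMs of its strain; filled points passed an adjusted p of 0.05. Myb is filled on the left of 0 in all 3 panels, and Cd34 moves from -0.48 in primary tumor TIMs to -2.97 in lymph node and -2.15 in lung TIMs.

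MYB sustains the proliferation of progenitors and is switched off as myeloid cells mature. In FVB BM IMs Myb stood at 20.6, 20.4 and 20.5 CPM in replicates 1 to 3, and in DBA2 BM IMs at 19.7, 31.7 and 24.1 CPM. In primary tumor TIMs it stood at 0.808, 1.1, 0.14, 1.09 and 0.767 CPM in replicates 1 to 5. These ranges were far apart, with the highest primary tumor library below the lowest marrow library. The fitted difference was a fall of 26.6-fold (log2 fold change -4.73, SE 0.47, adjusted p = 2.74e-05, edgeR's quasi-likelihood test). Lymph node TIMs held 0.206, 0.0927, 3.15, 0.172 and 0.0594 CPM, so replicate 3, with 265 counts, lay well above the other 4 libraries, which had 5 to 17 counts, yet still below every marrow library. Myb fell by 4.78 on the log2 scale there (SE 1.20, adjusted p = 0.0107, edgeR), and by 7.26 (SE 0.49) without replicate 3. Lung TIMs held 1.28, 1.12, 0.81, 1.88 and 1.62 CPM, again with no overlap, and the fall was 19.7-fold (log2 fold change -4.30, SE 0.29, adjusted p = 8.56e-06, edgeR). The call was kept in all 8 fits that left out 1 library in each of the 3 comparisons. The stricter rule for a differentially expressed gene (DEG; adjusted p below 0.0001 and a change of over 1 on the log2 scale) was met by Myb alone, in the primary tumor and the lung comparison, beside 12.9% and 2.97% of all genes, and by 0 members in the lymph node comparison, beside 5.71%. Of the 8 fits with 1 library left out, 7 did not reach this rule in the primary tumor comparison and 1 did not in the lung comparison.

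GFI1 is a zinc finger repressor that favors the neutrophil over the monocyte fate. Gfi1 stood at 3.73, 1.21 and 0.59 CPM in FVB BM IMs and at 0.298, 0.13 and 0.158 CPM in DBA2 BM IMs. In primary tumor TIMs it stood at 0.0108, 0.113, 0, 0.0994 and 0.163 CPM, which is 0 to 14 counts a library. No primary tumor library reached the lowest FVB marrow library, and the fitted log2 fold change was -4.57 (SE 1.03, adjusted p = 0.00372, edgeR). Leaving out FVB replicate 1, the highest marrow library, gave -3.52. Counts of Rn45s, the ribosomal RNA precursor, ranked the FVB marrow libraries in the same order, at 19094, 8943 and 5252 CPM, and stood at 954 to 1769 CPM in DBA2 BM IMs and 201 to 749 CPM in TIMs, so the FVB marrow libraries stood apart in this respect. Its part in the comparisons with FVB marrow was not tested. In lymph node TIMs 4 libraries were at 0 and replicate 4 held 4 counts, or 0.0493 CPM. The log2 fold change of -7.35 (SE 1.65, adjusted p = 0.00626, edgeR) thus rested on 4 counts on the tumor side, and it was -10.35 without that library and -6.33 without FVB replicate 1. With so few counts, Gfi1 entered the lymph node test only through the marrow libraries and could only come out lower. In lung TIMs, with 0.0116, 0.0106, 0, 0.0414 and 0.0558 CPM, every library lay below every DBA2 marrow library, but the fall did not pass the test (log2 fold change -3.03, SE 1.11, adjusted p = 0.0765, edgeR). In that comparison the call appeared in 1 of 8 fits with a library left out, the fit without lung replicate 3 (log2 fold change -2.74).

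C/EBPε directs the terminal steps of granulocyte maturation. Cebpe stood at 2.33, 2.13 and 5.1 CPM in FVB BM IMs and at 1.3, 0.961, 1.41, 1.14 and 1.42 CPM in primary tumor TIMs. The groups did not overlap, and the 5 tumor libraries were close to each other. Cebpe fell by 1.38 on the log2 scale (SE 0.36, adjusted p = 0.00756, edgeR), but the call was lost without FVB replicate 3, which left a log2 fold change of -0.84 (SE 0.34). In DBA2 BM IMs Cebpe stood at 11.7, 15.6 and 15.1 CPM and in lung TIMs at 5.25, 4.93, 4.07, 5.39 and 6.14 CPM. These groups did not overlap either, and Cebpe fell 2.89-fold (log2 fold change -1.53, SE 0.19, adjusted p = 0.00033, edgeR), a call kept in all 8 fits with a library left out. Lymph node TIMs ranged from 1.1 to 2.9 CPM with a median of 1.31 CPM, which overlapped FVB marrow, and the log2 fold change of -0.99 (SE 0.60, adjusted p = 0.236, edgeR) did not pass. Eosinophil markers (Prg2, Prg3, Epx, Il5ra, Ccr3 and Ear6) moved in the same direction: they summed to 540 to 1147 CPM in FVB and 434 to 1114 CPM in DBA2 BM IMs, and to 1.63 to 3.56, 0 to 1.03 and 4.8 to 70.3 CPM in primary tumor, lymph node and lung TIMs. Of these 6 genes, 5, 5 and 4 fell in the 3 comparisons, although SiglecF+ cells had been gated out. Between DBA2 and FVB marrow, where Cebpe was higher in DBA2, 0 of the 6 were called. In lymph node TIMs, which had the lowest eosinophil sums, the Cebpe fall did not pass. The part of eosinophils in the Cebpe differences was not tested.

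CD34 is a sialomucin of the cell surface. Cd34 stood at 18.2, 31 and 26.3 CPM in FVB BM IMs and at 18.6, 12.1 and 19.3 CPM in DBA2 BM IMs. In primary tumor TIMs it stood at 14.3, 26.9, 11, 20.7 and 18.4 CPM, which overlapped marrow (log2 fold change -0.48, SE 0.28, adjusted p = 0.155, edgeR), and the change was -0.66 and called only without replicate 2. In lymph node TIMs it stood at 2.43, 0.053, 1.27, 8.5 and 3.73 CPM, where replicate 2 had 4 counts and replicate 4 had 690. Every lymph node library lay below every FVB marrow library and below every primary tumor library. Cd34 fell by 2.97 on the log2 scale against marrow (SE 0.95, adjusted p = 0.0326, edgeR), but the call was kept in only 3 of 8 fits with 1 library left out. It was lost without FVB replicate 1 (-3.17), 2 (-2.81) or 3 (-2.93) and without lymph node replicate 3 (-2.77) or 5 (-3.03), and the change was -3.74 without lymph node replicate 4. In lung TIMs Cd34 stood at 4.99, 3.74, 3.42, 4.98 and 2.65 CPM, all below DBA2 marrow. The fall of 2.15 on the log2 scale (SE 0.26, adjusted p = 0.000328, edgeR) was called in all 8 fits with a library left out.

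KIT is the receptor for stem cell factor. Kit was low everywhere, at 0.352, 0.54 and 3.94 CPM in FVB BM IMs and 1.3, 0.299 and 0.76 CPM in DBA2 BM IMs. Primary tumor TIMs held 0.646, 1.3, 0.721, 3.82 and 2.29 CPM, lymph node TIMs 0, 0.199, 0.119, 1.32 and 0.523 CPM, and lung TIMs 0, 0.127, 0, 0.538 and 0 CPM. All groups overlapped their marrow, FVB replicate 3 held most of the marrow signal (it also had the most Gata2, Meis1 and Cebpe and the least Gfi1 of the FVB marrow libraries), and 3 of the 5 lung libraries had 0 counts. The log2 fold changes of 0.08 (SE 0.86), -1.91 (SE 1.47) and -2.62 (SE 1.62) did not pass in primary tumor, lymph node and lung TIMs (adjusted p = 0.945, 0.349 and 0.283, edgeR). Leaving out 1 library moved them over -0.42 to 1.97, -2.95 to -0.04 and -4.61 to -2.05, with no call. Without FVB replicate 3 the first became 1.97 and the second -0.04, and without lung replicate 4 the third became -4.61. With SEs of this size, a change of several-fold in Kit was not detectable.

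SOX4 is an HMG-box factor of progenitors and of many tumor and mesenchymal cells. Sox4 stood at 2, 2.75 and 1.34 CPM in FVB BM IMs, and at 1.68, 17.1, 3.28, 9.84 and 13.2 CPM in primary tumor TIMs. Primary tumor replicates 2 to 5 lay above every marrow library, while replicate 1 fell within the marrow range. Sox4 rose 4.39-fold (log2 fold change 2.13, SE 0.72, adjusted p = 0.0268, edgeR), and it was the single member that rose against marrow. The call was kept in 4 of 8 fits with 1 library left out, and was lost without primary tumor replicate 2 (1.77) or without FVB replicate 1 (2.15), 2 (2.44) or 3 (1.92). Lymph node TIMs, at 3.72, 2.08, 1.77, 2.45 and 0.487 CPM, straddled FVB marrow (log2 fold change 0.06, SE 0.70, adjusted p = 0.964, edgeR). In the DBA2 strain the marrow held 0.688, 0.838 and 0.486 CPM and the lung TIMs 0.336, 0.454, 0.0945, 0.455 and 2.13 CPM (log2 fold change -0.04, SE 0.90, adjusted p = 0.981, edgeR).

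Fibroblast markers stood beside Sox4 and Cd34 in the primary tumor libraries. The 6 markers (Col1a1, Col1a2, Col3a1, Dcn, Lum and Pdgfra) summed to 531, 1041, 365, 1112 and 691 CPM in primary tumor replicates 1 to 5, and to at most 0.193 CPM in FVB BM IMs, where 5 of the 6, all but Col1a2, were at 3 or fewer counts in each library. All 6 rose in primary tumor TIMs, but genes so near 0 in marrow could only come out higher, so that count adds nothing to the sums. The sum was 0.836 to 87.1 CPM in lymph node TIMs and 1.31 to 43 CPM in lung TIMs, so the TIM groups with little Cd34 and Sox4 also had the lower fibroblast sums. Within the primary tumor libraries, replicates 2, 4 and 5 had both the higher Sox4 levels and the higher fibroblast sums, and replicates 1 and 3 had the lower of both. In lung TIMs the library with the highest Sox4, replicate 5, also held the most Col3a1, at 26.5 CPM against 0.122 to 7.17 CPM in the others. Its fibroblast sum of 43 CPM was the highest of the lung libraries, but its Cd34, at 2.65 CPM, was the lowest. In lymph node TIMs replicate 2 had the highest fibroblast sum, 87.1 CPM, but the lowest Cd34, 0.053 CPM. Replicate 4, with the highest Cd34 (8.5 CPM), had the next highest sum, 69.6 CPM. Replicate 1 had the lowest sum there, 0.836 CPM, but the highest Sox4, 3.72 CPM. Endothelial markers (Pecam1, Cdh5, Kdr, Tek, Emcn, Cldn5 and Tie1) summed to 52.9 to 71.7 CPM in primary tumor TIMs and 55.5 to 110 CPM in lymph node TIMs, against 6.51 to 9.4 CPM in FVB BM IMs, and most of that was Pecam1, which myeloid cells also carry. Within the primary tumor libraries epithelial and squamous carcinoma markers ran with Sox4 as well, at 59.7, 94.3, 63.3, 104 and 85.5 CPM in replicates 1 to 5, again higher in replicates 2, 4 and 5. In lung TIMs the library with the lowest Sox4, replicate 3, had 1.27 CPM of these markers against 62.9 to 119 CPM in the others. But lung replicate 2, with the most markers at 119 CPM, held 0.454 CPM of Sox4 against 2.13 CPM in replicate 5. In lymph node TIMs replicate 5 was lowest in both, at 10 CPM of the markers and 0.487 CPM of Sox4. Replicate 3 there had the most markers, 140 CPM, of which 136 CPM was Cdh1. Its Sox4 of 1.77 CPM was below that of replicates 1, 2 and 4. The part of fibroblasts, endothelium or carcinoma cells in the Cd34 and Sox4 levels was not tested.

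**Figure D3:**
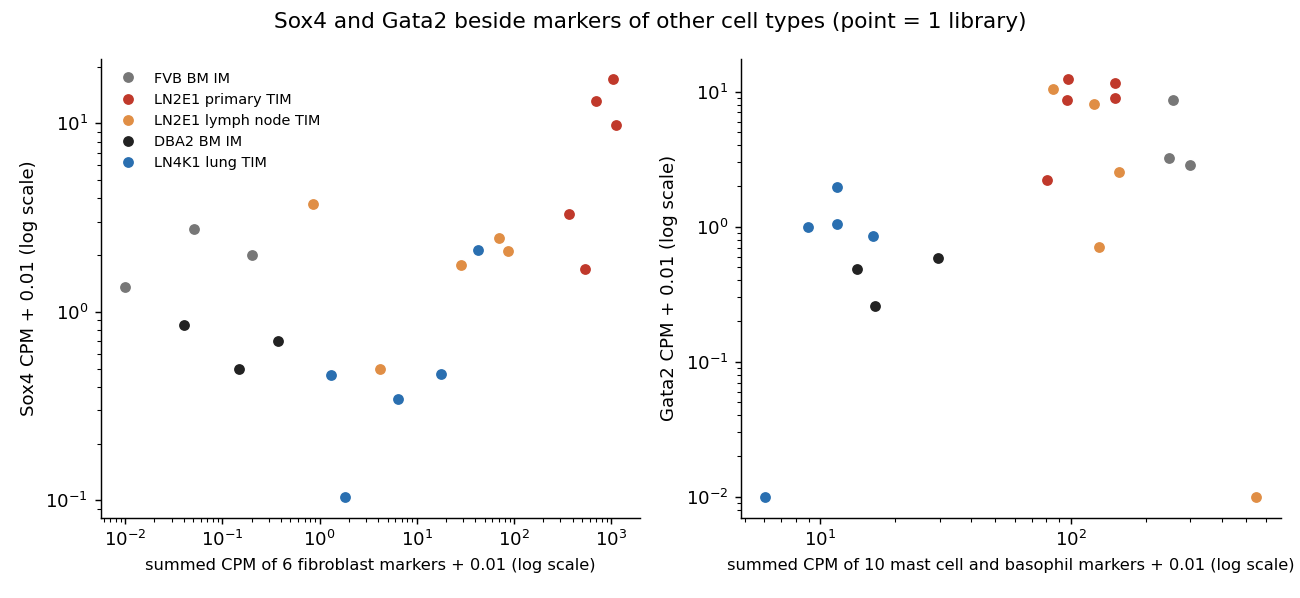
The left panel plots Sox4 CPM against the summed CPM of 6 fibroblast markers, and the right panel Gata2 CPM against the summed CPM of 10 mast cell and basophil markers, both with 0.01 added and on log scales; each point is 1 library, colored by group. The 3 primary tumor libraries at the top right of the left panel hold 9.84 to 17.1 CPM of Sox4, and the lymph node library at the lower right of the right panel is replicate 1, with 549 CPM of the markers and 0 counts of Gata2.

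GATA2 is required for stem cells and for the mast cell and basophil lineages. Gata2 stood at 2.85, 3.23 and 8.69 CPM in FVB BM IMs and at 2.21, 8.68, 11.6, 8.95 and 12.3 CPM in primary tumor TIMs. Lymph node TIMs spread from 0 counts in replicate 1 to 10.4 CPM in replicate 3, with 8.02, 2.53 and 0.701 CPM in replicates 2, 4 and 5. Both TIM groups overlapped FVB marrow, with log2 fold changes of 0.80 (SE 0.55, adjusted p = 0.239) and -0.19 (SE 1.33, adjusted p = 0.93) in edgeR's quasi-likelihood test. In the primary tumor comparison the call appeared in 1 of 8 fits with a library left out, the fit without primary tumor replicate 1, at a log2 fold change of 1.05. Lung TIMs held 1.04, 1.95, 0, 0.838 and 0.982 CPM against 0.575, 0.249 and 0.475 CPM in DBA2 marrow (log2 fold change 1.08, SE 1.19, adjusted p = 0.564, edgeR). Mast cell and basophil markers did not run parallel to Gata2 across tissues, since their sum of 80.8 to 151 CPM in primary tumor TIMs was below the 247 to 299 CPM of FVB marrow. Most of the primary tumor sum was Hdc, the histidine decarboxylase that other myeloid cells can also make, which stood at 73.8 to 142 CPM and rose (log2 fold change 2.71, SE 0.26, adjusted p = 2.13e-05, edgeR). The other 5 called genes of the list fell there, among them Prss34 from 158 to 0.298 CPM and Mcpt8 from 74 to 6.21 CPM. In lymph node replicate 1 that sum was 549 CPM, with 241 CPM of Prss34, 137 CPM of Mcpt8 and 42.1 CPM of Cpa3, although Gata2 and Kit had 0 counts there.

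The homeobox factors MEIS1 and HOXA9 act together in stem cells and in myeloid leukemia. Meis1 stood at 1.58, 2.93 and 4.32 CPM in FVB BM IMs, 4.59, 3.96, 3.5, 4.17 and 3.78 CPM in primary tumor TIMs and 7.19, 3.15, 1.94, 1.55 and 2.32 CPM in lymph node TIMs. DBA2 BM IMs held 2.13, 2.34 and 0.898 CPM and lung TIMs 2.03, 1.31, 3.04, 2.49 and 2.11 CPM. Every TIM group overlapped its marrow, and the log2 fold changes of 0.41 (SE 0.32), 0.13 (SE 0.64) and 0.22 (SE 0.43) did not pass (adjusted p = 0.285, 0.898 and 0.76, edgeR). Without FVB replicate 3 the primary tumor value was 0.82 and was called. Hoxa9 was close to absent: 11 of the 21 libraries had 0 counts and the highest had 53. The highest levels were 0.232 CPM in FVB marrow, 0.154 CPM in DBA2 marrow, 0.0331 CPM in primary tumor, 0.63 CPM in lymph node and 0.0317 CPM in lung TIMs. Of the comparisons of TIMs with marrow, only the lymph node one had enough counts to test it (log2 fold change 0.68, SE 2.16, adjusted p = 0.838, edgeR), where the depth could not show a difference.

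Among the genes that surround these members in the myeloid pathway, the cell cycle and primary granule genes moved nearly as blocks. Over all genes tested, 28.6%, 17.2% and 11.0% fell and 33.3%, 20.2% and 13.9% rose in primary tumor, lymph node and lung TIMs. The 12 cell cycle genes all fell in each of the 3 comparisons, with median log2 fold changes of -4.21, -5.99 and -4.91, and summed to 2099 to 2507 CPM in the 6 BM IM libraries against 91.9 to 205 CPM in the 15 TIM libraries. Top2a, which encodes a topoisomerase of dividing cells, had a mean of 262 CPM in FVB marrow and of 13.7 CPM in primary tumor TIMs (log2 fold change -4.28, SE 0.39, adjusted p = 2.05e-05, edgeR). Myb, at 0.0594 to 3.15 CPM in TIMs, thus separated the 6 marrow and 15 tumor libraries in the same direction as the cell cycle list did. Primary granule genes, which are made at the promyelocyte stage, fell in 6 of 6, 5 of 6 and 6 of 6 cases in primary tumor, lymph node and lung TIMs, with medians of -6.86, -4.50 and -3.95. Mpo, the myeloperoxidase of these granules, averaged 1372 CPM in FVB marrow, 2.35 CPM in primary tumor TIMs and 6.79 CPM at the lymph node site. In the other model it averaged 1616 CPM in marrow and 53.5 CPM in lung TIMs. Those falls measured 9.21 (SE 0.81), 7.65 (SE 1.91) and 4.99 (SE 0.37) on the log2 scale.

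The secondary and tertiary granule genes, of which C/EBPε is a known activator, were less uniform. Of 8, 6 fell and 1 rose in primary tumor TIMs, 6 fell and 0 rose in lymph node TIMs, and 3 fell and 1 rose in lung TIMs. Ngp, a secondary granule protein, fell by 7.26 on the log2 scale in primary tumor TIMs (SE 1.46, adjusted p = 0.00217, edgeR) and by 2.26 in lung TIMs (SE 0.55, adjusted p = 0.0155, edgeR). Mmp8, the neutrophil collagenase, reached 833 CPM in lung TIMs against 226 CPM in their marrow and so rose (log2 fold change 1.8, SE 0.15, adjusted p = 2.91e-05, edgeR), where Cebpe fell. Mature neutrophil markers (Csf3r, Cxcr2, Retnlg, S100a8, S100a9 and Mmp9) summed to 1530 to 2098 CPM in FVB and 809 to 1079 CPM in DBA2 BM IMs, and to 571 to 1534, 436 to 571 and 510 to 1053 CPM in primary tumor, lymph node and lung TIMs. The list was split: 2 genes rose and 2 fell in primary tumor, 2 rose and 3 fell in lymph node, and 0 rose and 2 fell in lung TIMs. Csf3r averaged 272 CPM in FVB marrow and 566 CPM in primary tumor TIMs, whereas S100a8 averaged 725 and 137 CPM. The part of mature neutrophils in the granule gene values was not tested.

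Other progenitor genes did not share the fall of Myb. Of 19 such genes in the table, 8 of 16 tested rose in primary tumor TIMs, 4 of 12 in lymph node TIMs and 3 of 15 in lung TIMs, with medians of 1.18, 0.47 and 0.85. Over all genes 33.3%, 20.2% and 13.9% rose, so the lung count in particular was not far from that share. In the same order 1, 1 and 0 of these genes fell, beside 28.6%, 17.2% and 11.0% of all genes. Runx1, a core hematopoietic factor that monocytes keep, rose from 78.5 to 185 CPM in primary tumor TIMs (log2 fold change 1.22, SE 0.14, adjusted p = 7.49e-05, edgeR). Cd93, a surface lectin of progenitors and monocytes, rose in all 3 comparisons (1.14, 1.25 and 0.85 on the log2 scale), and Flt3, the receptor of FLT3 ligand, rose in all 3 as well (2.23, 2.58 and 1.58). Plasmacytoid dendritic cell markers, whose cells carry Flt3, stood beside these values: the 3 markers rose in each comparison, and they summed to 171 to 373, 125 to 897 and 82 to 136 CPM in primary tumor, lymph node and lung TIMs against 25 to 39.2 CPM in BM IMs. Their part in the list was not tested.

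Of 8 monocyte factors, 4 rose and 1 fell in both LN2E1 comparisons, and 2 rose and 0 fell in lung TIMs, with medians of 0.53, 0.81 and 0.52. These rises stood beside 33.3%, 20.2% and 13.9% of all genes in primary tumor, lymph node and lung TIMs. The 1 that fell was Cebpb, a C/EBP factor of monocytes and stress granulopoiesis, with log2 fold changes of -2.50 (SE 0.45, adjusted p = 0.00117, edgeR) in primary tumor and -1.94 (SE 0.55, adjusted p = 0.0189, edgeR) in lymph node TIMs. Irf8, a determinant of the monocyte fate, averaged 377 CPM in FVB marrow and rose to 648 CPM in primary tumor TIMs (log2 fold change 0.76, SE 0.10, adjusted p = 0.00014, edgeR) and to 849 CPM in lymph node TIMs (1.17, SE 0.13, adjusted p = 9.74e-05, edgeR). In lung TIMs it stood at 607 CPM against 790 CPM in DBA2 BM IMs (log2 fold change -0.46, SE 0.18, adjusted p = 0.0896, edgeR). Csf1r, the receptor that sustains monocytes and macrophages, rose by 1.74 (SE 0.17, adjusted p = 2.07e-05, edgeR) and 1.85 (SE 0.25, adjusted p = 0.000285, edgeR) in the LN2E1 comparisons. Nr4a1, a nuclear receptor of patrolling monocytes that is also an immediate early gene, rose in all 3, by 3.64, 3.27 and 2.24 on the log2 scale.

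**Figure D4:**
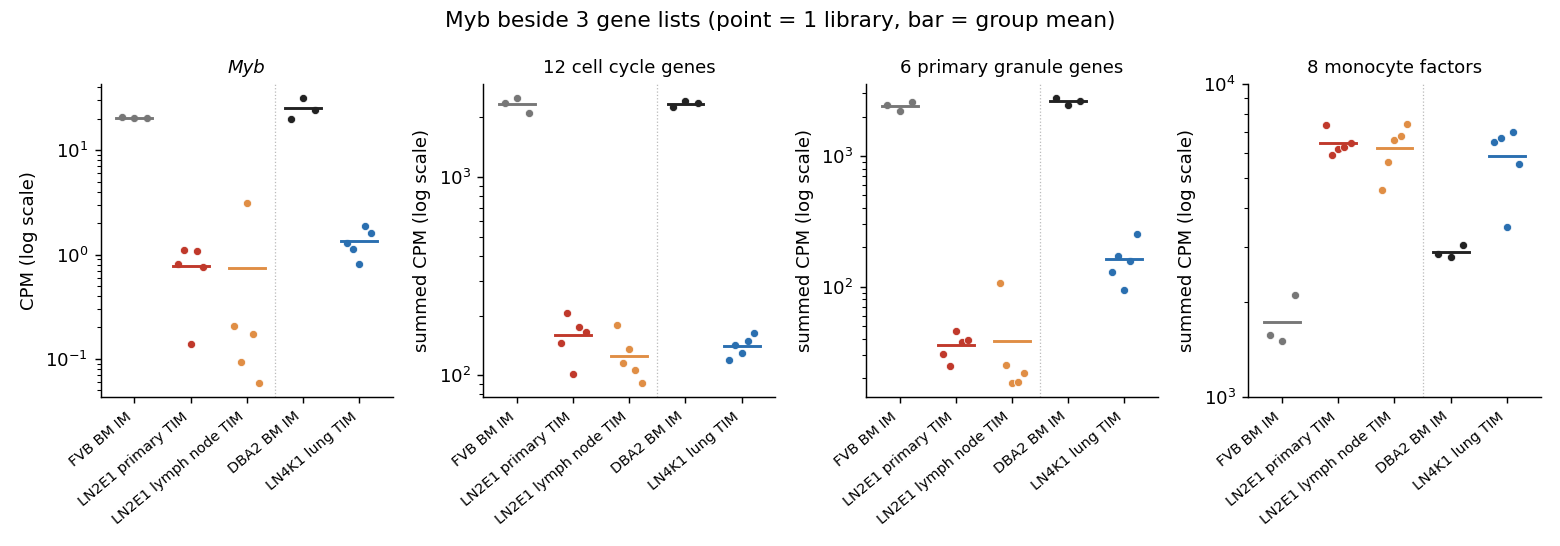
Panels show, on log scales, Myb CPM and the summed CPM of 12 cell cycle genes, 6 primary granule genes and 8 monocyte factors; points are libraries of the 5 groups and bars are group means. Marrow libraries sit above every TIM library of their strain in the first 3 panels and below it in the fourth, where the TIM sums run from 3494 to 7455 CPM against 1504 to 3045 CPM in BM IMs.

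Lymph node and primary tumor TIMs of the LN2E1 model were then compared directly to ask whether the members differed between the sites. Of 7 members tested, 0 were called, beside 11.7% of all genes. By unadjusted p-values, 2 members passed the threshold, Cd34 and Sox4. Cd34 was 5.66-fold lower in lymph node TIMs with no overlap (log2 fold change -2.50, SE 0.82, adjusted p = 0.0724, edgeR), beside 8.84% of all genes that lay lower without overlap. For Sox4 the log2 fold change was -2.09 (SE 0.66, adjusted p = 0.0645, edgeR), with overlapping libraries. With DESeq2, 2 members were called. Leaving out 1 library, Cd34 was called without lymph node replicate 2 (-2.18) or 4 (-3.27), and Sox4 without primary tumor replicate 1 (-2.37) or lymph node replicate 1 (-2.40). The fibroblast sum of 365 to 1112 CPM in primary tumor TIMs against 0.836 to 87.1 CPM in lymph node TIMs stood beside both values. Myb (-0.08, SE 1.11) and Cebpe (0.38, SE 0.47) showed log2 differences below their SEs.

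The marrow baselines of the strains differed in several members. In DBA2 against FVB BM IMs, 1 of 9 tested members was higher and 3 were lower, beside 11.5% and 9.57% of all genes, and the median log2 fold change was -0.72, against 0.00 over all genes tested. Cebpe was 4.46-fold higher in DBA2 (log2 fold change 2.16, SE 0.36, adjusted p = 0.00582, edgeR), and Gata2 was 11.3-fold lower (-3.49, SE 0.57, adjusted p = 0.00512, edgeR), both without overlap and both called in all 6 fits with 1 library left out. Without FVB replicate 3 the Gata2 difference was -2.77, and with all 5 groups in 1 fit the Gata2 call was lost at an adjusted p of 0.128, the range over the alternatives being 5.76e-09 to 0.128. Gfi1 (-3.19, SE 0.80, adjusted p = 0.0269, edgeR) and Sox4 (-1.57, SE 0.47, adjusted p = 0.0466, edgeR) were lower too, without overlap. In all 3 members were lower and 1 was higher without overlap, beside 21.5% and 20.5% of all genes. The Gfi1 call was lost in 4 of 6 such fits, without FVB replicate 1 (-2.17) or 2 (-3.43) and without DBA2 replicate 2 (-2.97) or 3 (-3.06). The Sox4 call was kept only without FVB replicate 3, with values of -1.30 to -1.75 in the 5 fits that lost it. Myb (0.32, SE 0.18, adjusted p = 0.238, edgeR) and Cd34 (-0.57, SE 0.25, adjusted p = 0.137, edgeR) did not pass. Mast cell and basophil markers moved with Gata2: 6 of 7 tested genes of that list were lower in DBA2, and the sum was 29.5, 16.6 and 14.1 CPM in the DBA2 libraries against 247 to 299 CPM in FVB. Prss34, a basophil protease, stood at 158 CPM in FVB and 6.57 CPM in DBA2 BM IMs, and Cpa3, a mast cell and basophil carboxypeptidase, was lower by 3.40 on the log2 scale. Among granule genes, Cebpe did not run with the secondary list, in which 5 of 8 genes were lower and 1 was higher in DBA2. The part of basophils in the Gata2 difference was not tested.

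The tumor effect of the primary LN2E1 model was set against that of the LN4K1 model in an interaction term, the change from FVB BM IMs to primary tumor TIMs minus the change from DBA2 BM IMs to lung TIMs. Of 9 members tested, only Cd34 was called, beside 26.5% of all genes. The Cd34 fall was smaller in primary tumor TIMs by 1.68 on the log2 scale (SE 0.41, adjusted p = 0.00792, edgeR), and the value was 1.44 to 1.87 and called in all 16 fits with 1 library left out. The call was lost when all 5 groups shared 1 estimate of the spread, at 1.63 and an adjusted p of 0.259, beside a range of 0.000457 to 0.259 over the alternatives. Fibroblast sums of 365 to 1112 CPM in primary tumor TIMs and 1.31 to 43 CPM in lung TIMs stood beside it. Sox4, with an interaction of 2.19 (SE 1.11, adjusted p = 0.158, edgeR), did not pass, and neither did Myb (-0.41, SE 0.58, adjusted p = 0.654, edgeR) or Cebpe (0.16, SE 0.39, adjusted p = 0.816, edgeR). Without lung replicate 5 the Sox4 interaction was 3.21 and called.

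Sums of the remaining marker lists varied with tissue. Epithelial and squamous carcinoma markers summed to 59.7 to 104, 10 to 140 and 1.27 to 119 CPM in primary tumor, lymph node and lung TIMs and to at most 2.44 CPM in BM IMs. In lymph node TIMs nearly all of that sum was Cdh1, at 8.14 to 136 CPM, while Krt8 reached at most 0.107 CPM and Krt18 0.505 CPM. The lymph node sum was thus carried by 1 gene of the list. B lineage markers summed to 13.5 to 49.2 CPM and dendritic cell markers to 46.6 to 340 CPM over the libraries. T and NK cell markers summed to 25.3 to 28.2 CPM in FVB and 3.23 to 6.93 CPM in DBA2 BM IMs. Their sums were 1.29 to 5.7, 0.131 to 6.16 and 12.5 to 32.1 CPM in primary tumor, lymph node and lung TIMs. Erythroid markers summed to 5.05 to 9.05 CPM in FVB and 0.848 to 3.42 CPM in DBA2 BM IMs, and to at most 0.563 CPM in TIMs. The part of these cells in the member values was not tested. Lymph node replicate 1 changed no call on the members against FVB marrow: without it Cd34, Myb and Gfi1 had log2 fold changes of -2.89, -4.54 and -7.07. Lung replicate 3 changed only the call on Gfi1, and without it Cd34, Myb and Cebpe had log2 fold changes of -2.10, -4.17 and -1.46.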

How the data were processed

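RNA of the 21 sorted samples was amplified with a SMARTer ultra-low input kit and made into non-stranded Nextera XT libraries. The authors trimmed reads with BBDuk, aligned them to mm10 with BBMap, sorted them with SAMtools 1.8 and counted them per gene with featureCounts 1.5.2, and the deposited values are raw counts for 23420 gene symbols. The annotation used for counting is not given in the sources used here.

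Groups were taken from the sample labels. Counts were scaled by TMM and tested with edgeR 4.0.16 (glmQLFit and glmQLFTest, R 4.3.3) on the libraries of each comparison, after filterByExpr (minimum count 10, minimum total 15), with Benjamini-Hochberg adjustment over all genes tested. Log2 CPM used a prior count of 2. DESeq2 1.42.0 was an alternative, with other filters, size factors, all groups in 1 fit, a replicate block and each library left out. Members and lists were chosen with earlier results of these data known. Named genes are all members, the 3 most abundant genes of a list and the 3 genes most like each member by Pearson's r; Flt3, Col1a2, Col3a1, Cpa3, Cebpb and Rn45s were named after their values were seen where they fell outside this rule. Intervals between groups of 3 to 5 libraries are wide, and amplified reads without molecular identifiers are not independent molecules. A gene of the progenitor list and a sort marker are not reported here.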

Additional observations from a re-analysis of the deposited data

Results flagged for a closer look

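In 25 groups of 5 libraries, the highest or lowest library was compared with the others by Dixon's ratio, and 6 passed. Chance passes this ratio in about 1 of 20 groups of normally distributed values. Here it was taken on CPM that were not log-transformed, several of them at or near 0. That rate need not hold for them, and the 6 cannot be read as an excess. Kit was at 0.538 CPM in lung replicate 4. Myb was at 3.15 CPM in lymph node replicate 3. Sox4 was at 2.13 CPM in lung replicate 5. Meis1 was at 7.19 CPM in lymph node replicate 1, Cebpe at 2.9 CPM in lymph node replicate 5 and Gfi1 at 0.0493 CPM in lymph node replicate 4. For Gfi1 the other 4 lymph node libraries were at 0 counts, so that the ratio passes whatever the fifth holds, and that flag carries no weight. Of the 5 others, 3 came from lymph node TIMs, in 3 different libraries.

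The change of Cd34 from marrow to tumor differed between the models by 1.68 on the log2 scale, by the interaction term in edgeR's quasi-likelihood test (adjusted p = 0.00792).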

How the results depend on the processing

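No called value of a member changed sign under the alternatives run. With the replicate number as a block, 2 members were called in primary tumor and 1 in lymph node TIMs against FVB marrow, 2 in the interaction, and 0 met the DEG rule in primary tumor and lung TIMs; the block changed no count of calls elsewhere by over 1.5 times. Deviations of same-numbered libraries correlated at -0.28 to 0.24 over 9115 genes, and in no comparison were all pairs over 0.1, so the numbers were not taken to pair the samples. As a hint from the data, 3 of 3 lymph node and 2 of 3 lung libraries correlated best with their own number in marrow, against 1 of 3 in primary tumor TIMs and between the marrows and 1 of 5 between the LN2E1 sites. With all 5 groups in 1 fit, 0 members met the DEG rule in primary tumor and lung TIMs, 1 was called between lymph node and primary tumor TIMs, 1 between the marrows and 0 in the interaction. DESeq2, unshrunken or shrunken, gave 2, 2 and 3 DEGs in primary tumor, lymph node and lung TIMs and 2 calls between lymph node and primary tumor TIMs. With at least 10 counts in every library, 0 members were called in lymph node TIMs against marrow, since Cd34, Myb and Gfi1 then left the test, and 1 between lymph node and primary tumor TIMs. The cause of the other differences was not tested.

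Leaving out each library in turn gave 3 to 5 calls in primary tumor, 2 to 3 in lymph node and 3 to 4 in lung TIMs against marrow, 0 to 1 between lymph node and primary tumor TIMs, 2 to 4 between the marrows and 1 to 2 in the interaction, and 0 to 1 DEGs in each comparison with marrow. Over all other settings 297 values were unchanged in direction and call, 10 gained and 11 lost a call, and 2 uncalled values moved.

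At this depth Hoxa9 could not be compared, and the values of Gfi1 and Kit in TIMs rest on few counts. Groups of 3 marrow libraries let 1 library decide several calls. RNA of genes listed as markers of other cell types was present in the sorted samples. Whether it came from such cells or from the sorted monocytes was not tested.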

Other observations

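The genes whose levels followed each member most closely over the 21 libraries, among the 10686 genes searched (mean log2 CPM over 0), are given by Pearson's r of log2 CPM, without a test, since the libraries share groups and depth. Myb was followed most closely by Eif2d (0.96), Cdc23 (0.95), a subunit of the anaphase-promoting complex, and 2810417H13Rik (0.95). Cebpe was followed by Tkt (0.95), the transketolase of the pentose phosphate pathway, Anapc11 (0.93) and Ptpn7 (0.93). Gfi1 was followed by Gar1 (0.92), a small nucleolar ribonucleoprotein, Hist1h2ak (0.89) and Pdlim1 (0.89). Gata2 was followed by Bag2 (0.90), Ly75 (0.90), the endocytic receptor DEC-205, and Iqcb1 (0.88). Sox4 was followed by Hmga2 (0.88), an architectural chromatin protein, Cd63 (0.87) and Ank (0.83), and Cd34 by Smyd4 (0.88), Apex2 (0.87) and Klf8 (0.83). Likeness was lower for Kit, with Ctnna1 (0.82), Nnt (0.81) and Gpsm1 (0.80), for Meis1, with Ptk2 (0.75), Iffo2 (0.72) and Pigz (0.71), and for Hoxa9, with Gm16576 (0.70), Dgcr6 (0.69) and Mga (0.68).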
